A study of Mus musculus with 11 samples.

Results

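Nodal, Lefty1, Lefty2, Smad7, Bmp4, Id1, Id2, Id3 and Id4 are 9 genes of the Nodal and BMP branches of TGF-beta family signalling, chosen by name from the 39179 genes of the deposited table through their Ensembl identifiers. All 9 had a mean normalized count of 10 or more over the 10 libraries and were tested among 15781 genes. RNA, poly(A)-selected per the labels, was sequenced from mouse embryonic stem cells (ESCs) and from embryoid bodies (EBs), aggregates in which ESCs are let to differentiate. Each was made from wild-type (WT) cells and from cells with a knockout of Mettl3 (KO), the catalytic subunit of the enzyme that places N6-methyladenosine on messenger RNA. There were 3 libraries per genotype in ESCs (replicates A, B and C) and 2 per genotype in EBs (A and B). The strain is C57BL/6 in all of these groups. ESCs were kept in serum-free N2B27 medium with LIF and the inhibitors CHIR99021 and PD0325901 (2i). EBs were grown from them on non-adherent plates in serum-containing fibroblast medium for 8 to 21 days, and the day of each library is not given in the sources used here. Nor is it given whether the KO cells are 1 clone, so clone and genotype cannot be told apart. ESC replicate C was the one measured alongside a protein assay (SILAC). A WT fibroblast library was not analysed here.

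Nodal is a secreted ligand that acts through activin receptors and the coreceptor Tdgf1 on SMAD2 and SMAD3. Lefty1 and Lefty2 are secreted inhibitors of Nodal and are themselves induced by Nodal signalling, and Smad7 is an intracellular inhibitor of the whole family that the pathways induce. Bmp4 signals through SMAD1 and SMAD5, and the Id genes are its best-known direct targets. ID proteins bind E proteins such as Tcf3 and keep them from activating differentiation genes. In mouse ESCs, BMP acting through Id genes is known to help self-renewal in serum cultures, and Nodal and BMP4 pattern the early embryo.

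Replicate C of the ESCs stood apart from A and B, and this touches almost every result below. Across tested genes, log2 values of A and B correlated at r = 0.99 in either genotype, and those of C with A or B at 0.684 to 0.692 in WT and 0.653 to 0.659 in KO. The 2 replicate C libraries held 3026837 and 3075007 reads in genes, against 8523027 to 15426894 in the other 8. In them 3 reads are worth 8.33 to 9.88 normalized counts, against 1.63 to 2.72 in the others. Mettl3 was lower in all KO libraries (131 to 154) than in all WT libraries (368 to 425), although 18.4% of its exon bases overlap Tox4 on the other strand. Pluripotency markers were present in every library, with a summed level for 9 genes, Pou5f1 and Nanog among them, of 18750 and 16600 in WT EBs, 31170 and 27000 in KO EBs and 32580 to 67410 in ESCs. The sum of 9 fibroblast and matrix genes was 6612 to 11420 in ESC replicates A and B and 188.9 to 237.2 in replicate C. It was 3223 and 3193 in WT EBs and 2234 and 2183 in KO EBs. The sum of 9 endoderm genes was 42980 and 43110 in WT EBs, 267 and 270.8 in KO EBs, 1617 to 1991 in ESC replicates A and B and 444.4 to 975 in replicate C. Most of this sum was Lama1 in every library (1520 to 1790 in ESC replicates A and B and 289 to 705 in C). The 9 genes did not move together in replicate C. Sox17 was lower there (2.78 to 9.88 against 15.3 to 40.8), but Sox7 was higher (204 in WT and 22.2 in KO against 0). The part of cell makeup, culture or depth in the results was not tested, and in whole cultures fewer cells of a type and less RNA per cell cannot be told apart.

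With all 10 libraries, limma (log2 of the normalized count plus 1, Benjamini-Hochberg adjusted over all tested genes) called none of the 9 genes in any of 5 contrasts, called meaning an adjusted p under 0.05. The contrasts were KO against WT in ESCs, KO against WT in EBs, EBs against ESCs in WT, EBs against ESCs in KO, and the EB minus ESC difference of the genotype effects. In that order, 2.38%, 1.84%, 2.48%, 0.805% and 0.475% of all tested genes were called. At an unadjusted p under 0.05 the members were Smad7 in the first, Nodal in the second, Nodal and Smad7 in the third, none in the fourth and Nodal in the fifth. edgeR on the recovered reads also called 0 members in each contrast, with 2.39%, 1.83%, 2.93%, 1.23% and 0.646% of all genes called. DESeq2 called Smad7 in ESCs (0.84, adjusted p = 0.0434) and Nodal in EBs (1.53, adjusted p = 0.00554) and 0 members in the other 3. It called 12.4%, 9.83%, 9.66%, 8.99% and 4.90% of all genes, and gave no adjusted p for 5 of the 9 members. These p-values measure the spread between libraries, which may be partly technical. The limma fit pools that spread over the 4 groups, so p-values in EBs also carry the spread of ESC replicate C. For Lefty1 in EBs, the SE of the log2 difference of 3.51 was 2.57 with replicate C and 0.46 without it. A high adjusted p in EBs thus does not mean that the EB libraries of a genotype differed. The values per library are plotted by group for each gene.

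**Figure D1:**
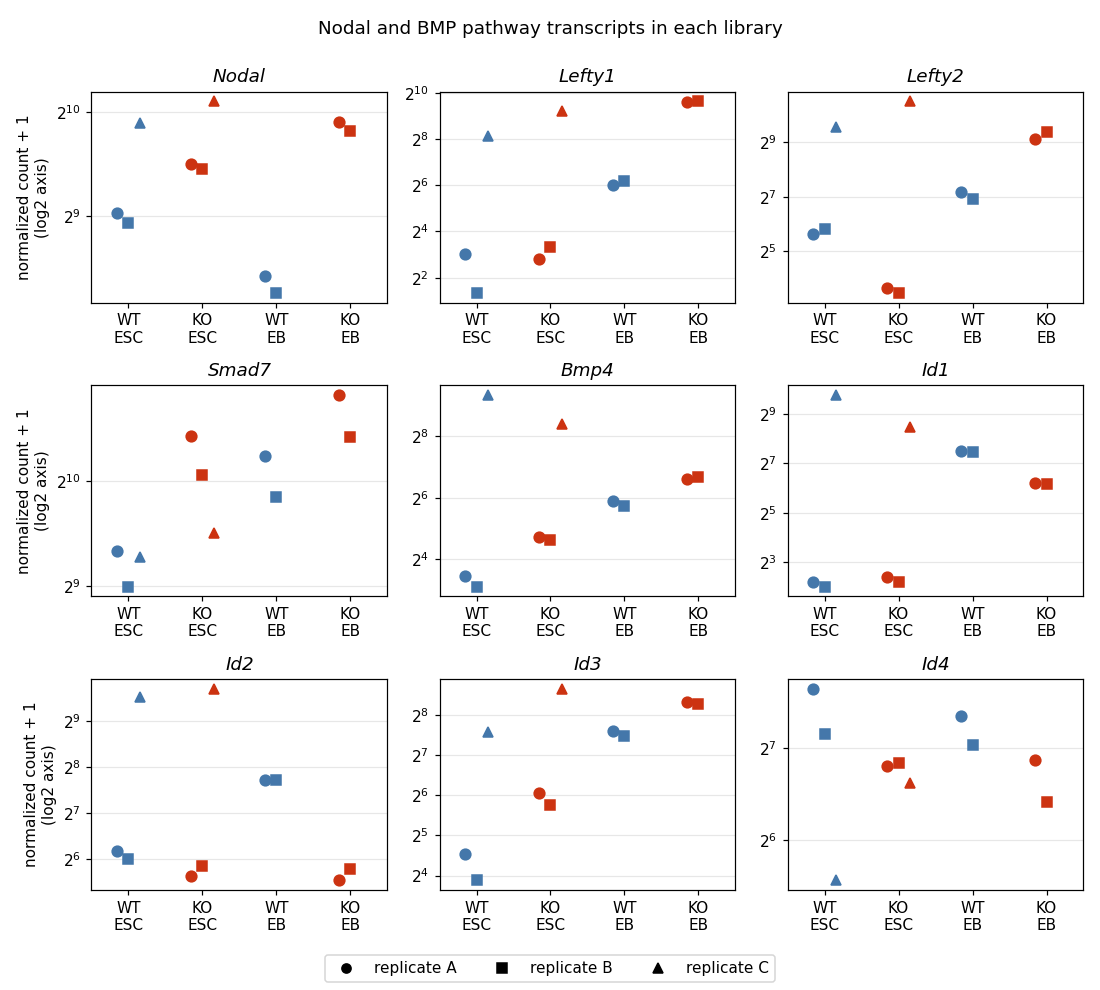
Normalized count plus 1 (log2 axis) of the 9 genes in each library, by genotype and culture, with WT in blue and KO in red and the replicate given by the marker shape (circle A, square B, triangle C). ESC replicate C lies far above A and B for Lefty1, Lefty2, Bmp4, Id1, Id2 and Id3, and the 2 EB libraries of a genotype lie close together.

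Nodal (chr10:61417972-61425338, plus strand, GRCm38) was the ligand at the head of its branch and was read in every library. In WT ESCs its normalized count was 520 in A, 489 in B and 949 in C, and in KO ESCs 725, 699 and 1100. WT EBs held 342 and 306, and KO EBs 959 and 903. Each KO library was thus above the WT library of the same letter, and the 2 KO EB libraries were above both WT EB libraries with no overlap, while the ESC groups overlapped. KO EBs averaged 931 ± 39.4 (SD, n = 2) against 324 ± 25.5 (SD, n = 2) in WT EBs. The log2 difference was 1.52 (SE 0.36, adjusted p = 0.0858), and with the replicate letter as a block the same difference was called (adjusted p = 0.00295). In ESCs the difference was 0.40 (SE 0.29, adjusted p = 0.593), called with the block (adjusted p = 0.0255).

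The KO difference of Nodal was larger in EBs than in ESCs by 1.12 (SE 0.46, adjusted p = 0.542), which was called with the block (adjusted p = 0.0175). WT EBs were below all WT ESC libraries, at a log2 difference of -0.94 (SE 0.33, adjusted p = 0.225). KO EBs lay within the range of the KO ESC libraries, at 0.18 (SE 0.33, adjusted p = 0.81). Over the 17 alternatives the adjusted p of the KO difference ran from 3.14e-06 to 0.486 in EBs and from 0.00131 to 0.851 in ESCs. Leaving out replicate C of either the WT or the KO ESCs was enough to bring the EB difference to an adjusted p of 0.0181 and 0.0383.

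Lefty1 (chr1:180935022-180938400) and Lefty2 (chr1:180893108-180899103) lie on the plus strand of the same chromosome, with 35918 bases between them. The coding sequences, 1104 bases each in GENCODE, are identical at 1014 bases (91.8%). Of the 50-base stretches of the longest Lefty1 transcript, 17.9% also occur in Lefty2, and 11.6% of those of Lefty2 occur in Lefty1. Reads from such stretches may be assigned to neither gene, so the level of each is uncertain.

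Lefty1 was nearly unread in ESC replicates A and B. The counts were 7.15 and 1.53 in WT (10 and 2 reads) and 5.99 and 9.08 in KO (11 and 10 reads), against 277 in WT replicate C and 599.9 in KO replicate C. WT EBs held 64.4 and 72.3, and KO EBs 785 and 793. The 4 EB values split cleanly by genotype, and those of KO EBs were above every other library. KO EBs averaged 789 ± 5.41 (SD, n = 2) against 68.3 ± 5.62 (SD, n = 2) in WT EBs, a log2 difference of 3.51 (SE 2.57, adjusted p = 0.7). With the block the SE was 0.53 and the difference was called (adjusted p = 0.0136). Over the alternatives its adjusted p ran from 0.000311 to 1. For ESCs the KO minus WT value was 0.96 (SE 2.10, adjusted p = 0.957), and it was called neither with the block (adjusted p = 0.156) nor without replicate C (0.89, adjusted p = 0.134).

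Lefty2 gave opposite KO differences in the ESC replicates. Replicates A and B held 48.6 and 55.0 in WT and 11.4 and 9.99 in KO, whereas replicate C held 758 in WT and 1455 in KO. WT EBs held 143 and 119, and KO EBs 554 and 664. KO was thus lower in A and B, higher in C and higher in EBs, where the groups did not overlap. In EBs the log2 difference was 2.21 (SE 2.35, adjusted p = 0.886), and it was not called with the block (adjusted p = 0.119). Fitted without both replicate C libraries, KO against WT was called lower in ESCs (-2.17, SE 0.16, adjusted p = 1.49e-05) and higher in EBs (2.21, SE 0.16, adjusted p = 1.26e-05). The highest adjusted p over the alternatives was 1 for each. A fit with replicate C as groups of its own gave a KO difference of 0.94 in C, from 1 library per genotype.

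The 2 Lefty genes stood in a different proportion to Nodal in each culture. Per kilobase of exon, Lefty1 was 0.00372 to 0.0164 of Nodal in ESC replicates A and B of both genotypes. The ratio was 0.348 in WT and 0.65 in KO replicate C, 0.224 and 0.282 in WT EBs, and 0.976 and 1.05 in KO EBs. For Lefty2 the ratio was 0.0751 and 0.0903 in WT ESC replicates A and B and 0.0126 and 0.0115 in the KO ones. It was 0.641 and 1.06 in WT and KO replicate C, 0.336 and 0.312 in WT EBs, and 0.464 and 0.59 in KO EBs. In KO EBs, then, Lefty1 stood near the level of its ligand, and more of Lefty1 than of Lefty2 was read per kilobase (ratio 2.1 and 1.77), unlike in WT EBs (0.667 and 0.904). Cer1, another secreted Nodal inhibitor, had no read in KO EBs or in any ESC library and 0.766 and 1.72 normalized counts in WT EBs, under the floor of 3 reads.

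**Figure D2:**
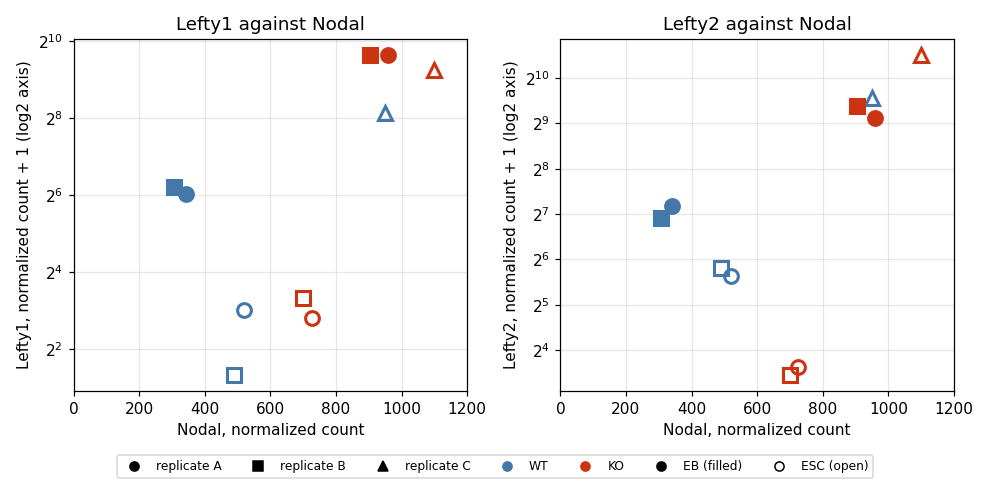
Lefty1 (left) and Lefty2 (right), normalized count plus 1 on a log2 axis, against the normalized count of Nodal in the 10 libraries, with filled markers for EBs and open ones for ESCs, WT in blue and KO in red. KO ESC replicates A and B have more Nodal than WT EBs (699 and 725 against 306 and 342) but less of both Lefty genes.

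Smad7 was well read in every library. Its count was 644.5, 508 and 619 in WT ESC replicates A, B and C and 1379, 1063 and 728 in the KO ones. WT EBs held 1205 and 922, and KO EBs 1810 and 1369. It was the only member whose 3 KO ESC libraries were all above the 3 WT ones, a separation that 18.0% of all genes showed in either direction. KO ESCs averaged 1057 ± 326 (SD, n = 3) against 591 ± 72.4 (SD, n = 3) in WT. This log2 difference of 0.80 (SE 0.26, adjusted p = 0.164) was called with the block (adjusted p = 0.0326), and without KO ESC replicate C alone (1.04, adjusted p = 0.0265). In EBs the groups did not overlap, but the difference of 0.58 (SE 0.32, adjusted p = 0.523) was not called with the block (adjusted p = 0.136). Over the alternatives, the adjusted p ran from 0.00158 to 0.433 in ESCs and from 0.0337 to 1 in EBs.

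Bmp4 (chr14:46383520-46390669, minus strand) overlaps Gm15217 on the other strand over 4.0% of its exon bases. It was low in WT ESC replicates A and B (10.0 and 7.63) and somewhat higher in the KO ones (25.6 and 23.6). Replicate C held 646 in WT and 333 in KO, the reverse order. WT EBs held 58.2 and 52.5, and KO EBs 96.8 and 101. Replicate C was therefore the library with most Bmp4 in each genotype, above both EB libraries. Over all libraries the difference of mean log2 values was 0.61 in ESCs (SE 1.72, adjusted p = 0.98), although the mean count was lower in KO ESCs (127) than in WT ESCs (221), and edgeR and DESeq2 gave -0.76 and -0.80. In EBs KO minus WT was 0.83 (SE 2.11, adjusted p = 1). Neither was called with the block (adjusted p = 0.414 and 0.399). Without replicate C both were called, at 1.39 (SE 0.20, adjusted p = 0.000442) and 0.83 (SE 0.20, adjusted p = 0.00758), with 1 as the highest adjusted p over the alternatives of each. Within replicate C, 1 library per genotype, the difference was -0.95.

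The Id genes encode 4 related inhibitors of E proteins. RefSeq promoters (GRCm38.p6) were at hand for Id2, Id3 and Id4, and for Nodal and Bmp4 among the other members. Id1, Lefty1, Lefty2 and Smad7 had no entry. The 250 bases before the RefSeq start are printed for the 3 Id genes, a choice made after their values in KO EBs were seen. Against WT EBs, Id3 was higher there and Id2 and Id4 lower, none of them called with all libraries and no block. Id2 is chr12:25096093-25096342 (minus strand), Id3 chr4:136143572-136143821 (plus strand) and Id4 chr13:48260866-48261115 (plus strand), each written 5′ to 3′. The Id2 and Id3 windows lie inside the GENCODE bounds of these genes given below, because the RefSeq and GENCODE starts differ. They are thus not wholly outside the annotated genes. Capitals mark matches to GGCGCC, the GC-rich SMAD1/5 element, or to CAGAC, the SMAD box, on either strand.
Id2: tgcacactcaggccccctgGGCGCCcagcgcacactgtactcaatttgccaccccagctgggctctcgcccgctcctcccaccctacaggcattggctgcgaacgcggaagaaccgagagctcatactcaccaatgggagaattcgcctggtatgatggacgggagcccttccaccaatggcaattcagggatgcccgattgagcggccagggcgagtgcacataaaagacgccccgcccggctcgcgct
Id3: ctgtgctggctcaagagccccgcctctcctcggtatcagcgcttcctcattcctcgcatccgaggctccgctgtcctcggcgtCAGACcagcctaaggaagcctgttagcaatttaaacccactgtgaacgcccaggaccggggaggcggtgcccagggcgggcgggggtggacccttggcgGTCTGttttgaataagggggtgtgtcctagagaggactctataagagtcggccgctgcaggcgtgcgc
Id4: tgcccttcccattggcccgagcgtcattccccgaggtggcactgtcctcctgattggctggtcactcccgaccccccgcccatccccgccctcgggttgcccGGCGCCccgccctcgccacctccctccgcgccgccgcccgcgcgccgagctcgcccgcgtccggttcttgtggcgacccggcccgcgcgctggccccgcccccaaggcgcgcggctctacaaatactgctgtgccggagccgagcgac

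In these windows GGCGCC occurs once in Id2 (231 bases before the start) and once in Id4 (148 bases before it). CAGAC occurs at 2 places in Id3 (167 and 68 bases before the start). Among 32851 promoters of the same length, 9.59% hold GGCGCC and 42.2% hold CAGAC. Whether these matches bear on the transcript levels was not tested. TGTNNATT, the FOXH1 element through which Nodal signals act, was found in none of the 5 members' windows and in 10.9% of all promoters. Id2 and Id3 have 18 CpG each and Id4 has 35, against a median of 6, and Nodal has 3.

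Id1 (chr2:152736251-152737410, plus strand) had hardly a read in ESC replicates A and B: 3.58 and 3.05 in WT (5 and 4 reads) and 4.35 and 3.63 in KO (8 and 4 reads). Replicate C held 870 in WT and 358 in KO. In WT EBs the count was 181 and 176.5, and in KO EBs 72.0 and 71.3, with little spread within a genotype. The KO minus WT value in EBs was -1.31 (SE 2.91, adjusted p = 1), and the block did not bring this past the threshold (adjusted p = 0.0906). It was called when replicate C was left out (SE 0.21, adjusted p = 0.00103), the lowest value over the alternatives, whose highest was 1. In ESCs the sign depended on the replicate, with 0.21 in A and B (adjusted p = 0.302) and -1.28 in C, where there is 1 library per genotype, both from the fit with replicate C apart.

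Id2 (chr12:25093799-25097140, minus strand) held 70.8 and 62.6 in WT ESC replicates A and B and 48.4 and 56.3 in the KO ones, and 738 and 839 in WT and KO replicate C. WT EBs both held 211, and KO EBs 45.2 and 53.5. The KO EB values were thus near those of ESC replicates A and B. KO EBs averaged 49.3 ± 5.86 (SD, n = 2) against 211 ± 0.144 (SD, n = 2) in WT EBs. The log2 difference was -2.08 (SE 1.57, adjusted p = 0.714), and it was called with the block (SE 0.21, adjusted p = 0.00567). Id2 was the member with the largest negative difference in EBs, and with the block the KO difference in EBs was below that in ESCs by 1.91 (adjusted p = 0.0249). Over the alternatives the adjusted p in EBs ran from 1.22e-05 to 1.

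Id3 (chr4:136143497-136145755, plus strand) was higher in KO in every pair of libraries with the same letter. WT ESCs held 22.2, 13.7 and 188, and KO ESCs 65.3, 52.7 and 399.9. WT EBs held 193 and 176, and KO EBs 318 and 305. The ESC groups overlapped only through WT replicate C, and the EB groups did not overlap. In ESCs the difference was 1.49 (SE 1.07, adjusted p = 0.587), called with the block (SE 0.18, adjusted p = 0.00634). In EBs it was 0.75 (SE 1.31, adjusted p = 0.999), not called with the block (adjusted p = 0.0682) and called without replicate C (SE 0.21, adjusted p = 0.0171). Over the alternatives the adjusted p ran from 0.000232 to 0.861 in ESCs and from 0.0171 to 1 in EBs.

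Id4 (chr13:48261228-48266026, plus strand) overlaps Gm49291 on the other strand over 4.4% of its exon bases. It varied least among the Id genes, at 200.3, 142 and 46.1 in WT ESCs and 111, 113.5 and 97.2 in KO ESCs. WT EBs held 162 and 130, and KO EBs 116.5 and 84.05. Replicate C had the lowest count of each ESC group, unlike for the other Id genes. KO ESCs stood at -0.04 from WT (SE 0.50, adjusted p = 0.999). KO EBs stood at -0.55 (SE 0.62, adjusted p = 0.906), which was not called with the block (adjusted p = 0.441) or without replicate C (adjusted p = 0.0545).

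The makeup of the Id transcripts differed between cultures and genotypes. Per kilobase of exon, Id4 gave 53.9% and 50.6% of the summed Id level in WT ESC replicates A and B, and 32.4% and 34.6% in the KO ones, where Id3 gave 41.0% and 34.5%. Id1 gave 3.19% to 4.22% in those 4 libraries but 64.1% in WT and 34.3% in KO replicate C. In WT EBs Id1 was the largest share (39.7% and 41.1%), followed by Id3 (27.5% and 26.5%) and Id2 (22% and 23.4%). These shares depend on the length used. Per kilobase of the longest transcript, the mean level in WT EBs was 154 for Id1, 144 for Id3 and 107 for Id2. In KO EBs Id3 was the largest (61.5% and 61.8%), Id1 gave 21.5% and 22.3%, and Id2 6.43% and 7.97%. Per kilobase, Id1 stood at 6.02 and 6.51 times Bmp4 in WT EBs and at 1.44 and 1.37 times in KO EBs, where Bmp4 itself was higher.

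**Figure D3:**
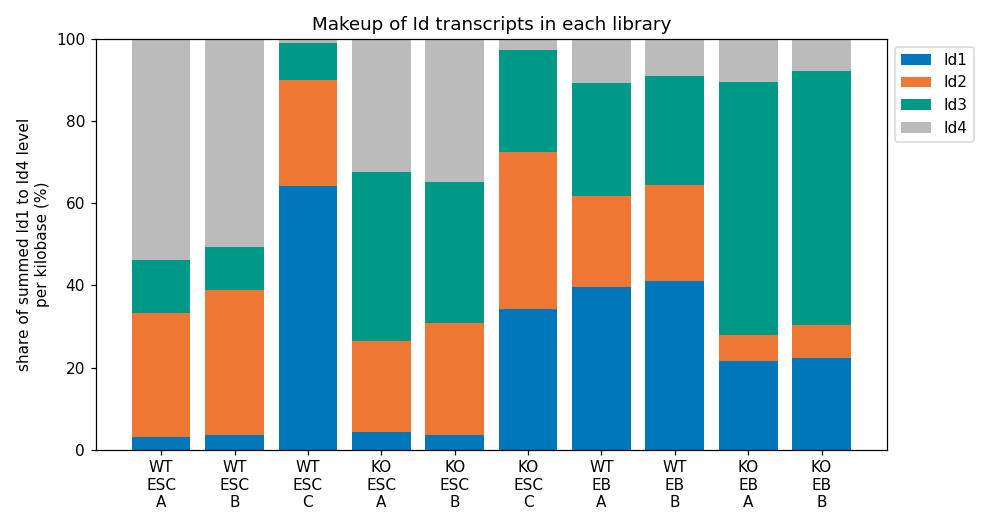
Share of each Id gene in the summed level of Id1 to Id4 per kilobase of exon (%), 1 bar per library, by genotype, culture and replicate. Id4 and Id2 make up most of WT ESC replicates A and B, Id1 leads in WT replicate C (64.1%) and WT EBs, and Id3 leads in KO EBs (61.5% and 61.8%).

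Between genotypes, all 9 genes were separated in EBs, 6 higher in both KO libraries (Nodal, Lefty1, Lefty2, Smad7, Bmp4 and Id3) and 3 lower (Id1, Id2 and Id4). With 2 libraries a group, 74.9% of all genes were separated, so the count says little of these genes in particular. The members' median log2 difference in EBs was 0.75, against -0.02 over all genes, and in ESCs it was 0.40 against -0.02. With the replicate block, KO against WT was called for 3 of 9 in ESCs (Nodal, Smad7 and Id3, all higher) and for 3 of 9 in EBs (Nodal and Lefty1 higher, Id2 lower), where 29.3% and 22.7% of all genes were called. The difference of the 2 KO effects was called for Nodal and Id2, against 7.79% of all genes.

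Without both replicate C libraries, the p-values measure the spread between A and B only, and 55.2% of all genes were called between KO and WT ESCs and 51.9% between KO and WT EBs. In ESCs 6 of 9 members were called: Nodal (0.50), Smad7 (1.08), Bmp4 (1.39) and Id3 (1.69) were higher in KO, and Lefty2 (-2.17) and Id4 (-0.58) lower. In EBs 8 of 9 were called, namely all but Id4, with Id1 and Id2 the 2 that were lower. The share of members called in ESCs was near that of all genes. The KO effects in EBs and ESCs differed for 6 of 9 (36.1% of all genes): Nodal (1.03), Lefty1 (2.63) and Lefty2 (4.38) toward higher in EBs, and Id1 (-1.51), Id2 (-1.73) and Id3 (-0.94) toward lower. Smad7 (-0.50, adjusted p = 0.188), Bmp4 (-0.56, adjusted p = 0.151) and Id4 (0.03, adjusted p = 0.944) were not called.

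In the fit with replicate C as its own groups, chosen after the data were seen, each arm in C is 1 library, whose spread is taken from the other libraries and not measured. The KO difference in C minus that in A and B was then called for 4 of 9 members and for 37.8% of all genes, which is no replicated test of replicate C. For Lefty2, Bmp4, Id1 and Id4 the sign was opposite, with Id4 at -0.58 in A and B and 1.06 in C, and Id1 at 0.21 and -1.28. Id2, not among the 4, was at -0.34 in A and B and 0.18 in C. Replicate C also differed from A and B in level: Id1 by 7.66 in WT and 6.17 in KO, Lefty1 by 5.94 and 6.16, Bmp4 by 6.05 and 3.71, Lefty2 by 3.85 and 6.96, Id2 by 3.45 and 3.98, and Id3 by 3.35 and 2.75, all on the log2 scale. The same differences were 0.91 and 0.63 for Nodal, 0.11 and -0.73 for Smad7, and -1.85 and -0.21 for Id4, with a median of -0.20 over all genes in both genotypes. The sum of matrix genes given above was lower in C, as was each of its genes except Thy1 (92.2 and 97.2 in C against 29.4 to 57.2). The differences of Id1 and Lefty1 rest on 2 to 11 reads per library in A and B.

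**Figure D4:**
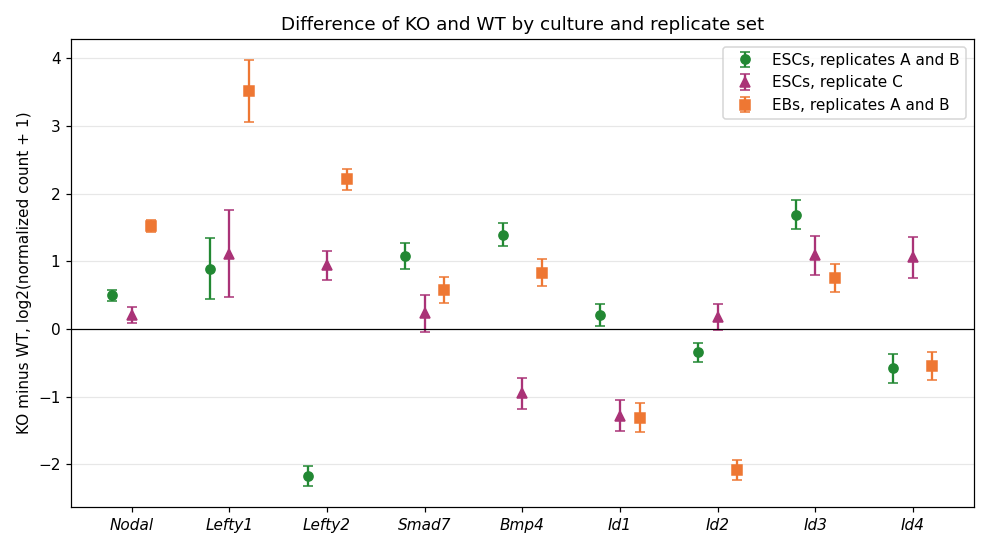
KO minus WT on the log2(normalized count + 1) scale for each gene, with the SE of the fit as bars, in ESC replicates A and B (circles), ESC replicate C (triangles) and EBs (squares, fitted without replicate C). The bars of replicate C, 1 library per genotype, rest on the spread of the other libraries. Lefty2 is at -2.17 in ESC replicates A and B and at 2.21 in EBs, and Bmp4 is at 1.39 in A and B and at -0.95 in C.

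The comparison of EBs with ESCs asks how these genes differ between the cultures. Whether the cells of the EBs had left the naive state was not tested. In WT, Nodal was lower and Smad7 higher in both EB libraries than in all 3 ESC libraries, and the other 7 overlapped, whereas 42.6% of all genes were separated. In KO, Lefty1 alone was separated, higher in EBs, against 41.7% of all genes. Against ESC replicates A and B only, WT EBs were called higher for 7 of 9, from 0.88 for Smad7 to 5.38 for Id1 (SE 0.21, adjusted p = 6.52e-07), and lower for Nodal (-0.64, SE 0.09, adjusted p = 0.00042), with 46.1% of all genes called. Id4 was not called (-0.21, adjusted p = 0.435). KO EBs were called higher for 6 of 9 (47.3% of all genes), including Lefty1 (6.56), Lefty2 (5.70) and Nodal (0.39). Id2 was at 1.65 in WT and at -0.09 in KO (adjusted p = 0.679). With all libraries and no block the values were others and none was called. Lefty2 in WT then stood at 0.04 (SE 2.15, adjusted p = 0.995) and Id2 in KO at -1.41 (SE 1.43, adjusted p = 0.725). With the replicate block, 7 members were called in WT and 6 in KO, against 4490 and 4444 of the 15781 tested genes. That block took a letter as shared by both cultures, which the labels do not state. The 4 contrasts share their groups of libraries, so the values stand side by side and are not independent.

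Levels can be compared between genes per kilobase of exon. In WT EBs the order of the mean level was Smad7 (235 ± 44.3), Nodal (154.5 ± 12.2), Id1 (154 ± 2.65), Id3 (103 ± 6.90), Id2 (86.5 ± 0.0592), Lefty2 (50.2 ± 6.63), Lefty1 (38.9 ± 3.20), Id4 (38.0 ± 5.96) and Bmp4 (24.6 ± 1.799), each a mean with SD of n = 2. Nodal and Id1, and Lefty1 and Id4, did not differ beyond their spread. In KO EBs the order was Lefty1 (449 ± 3.08), Nodal (444 ± 18.8), Smad7 (352 ± 69.0), Lefty2 (233 ± 29.7), Id3 (174 ± 5.14), Id1 (61.8 ± 0.438), Bmp4 (44.0 ± 1.35), Id4 (26.1 ± 5.97) and Id2 (20.2 ± 2.40). Lefty1 and Nodal, and Id4 and Id2, did not differ beyond their spread there. By the length of the longest transcript in place of all exon bases, Lefty1 in KO EBs stood at 487 and Id3 at 244, so that Lefty1 exceeded Nodal by more than their spread. Id3 then stood next to Lefty2 (246) in KO EBs. In WT EBs Id3 stood at 144 by that length, near Nodal (154.5) and Id1 (154), and Id2 at 107. The gaps between genes in these orders thus depend on the length used. Lefty1 thus stood near the low end of the order in WT EBs and at its top in KO EBs, and Id2 moved from the middle to the end. In ESCs the SD over 3 libraries exceeded the mean for Lefty1, Lefty2, Bmp4, Id1, Id2 and Id3 in both genotypes, so no order is given.

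Of 77 genes listed for the Nodal and BMP pathways, 66 were tested, and 57 of these are not among the 9. In ESCs 2 of the 57 rose in KO and 0 fell, where 2.38% of all genes were called. With the block 17 were called higher and 2 lower (29.3% of all genes), and without replicate C 24 and 10 (55.2%). Bambi, a pseudoreceptor that blocks BMP and TGF-beta receptors, was at 147, 111 and 115 in WT and 584, 596 and 419 in KO (2.08, SE 0.21, adjusted p = 0.0176). Ski, a repressor of SMAD-driven transcription, was at 623, 520 and 738 in WT and 1290, 1060 and 1170 in KO (0.91, SE 0.18, adjusted p = 0.0485). The call of Ski is not made by edgeR (adjusted p = 0.052). Tdgf1, the Nodal coreceptor, was at 2510, 2680 and 10400 in WT and 1050, 1020 and 4930 in KO, with a difference of -1.24 (SE 0.73, adjusted p = 0.477) that was called with the block (adjusted p = 0.00354). Leaving out 1 library that is not ESC replicate C ended both calls, and no gene of the series was called then. Both calls held in the 2 fits without 1 of the replicate C libraries. Over all 10 fits without 1 library, the adjusted p ran from 0.00216 to 0.111 for Bambi and from 0.017 to 0.198 for Ski.

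In EBs 1 of the 57 rose and 2 fell, where 1.84% of all genes were called. With the block 9 were called higher and 14 lower (22.7% of all genes), and without replicate C 19 and 19 (51.9%). Bambi was at 106 and 91.2 in WT and 314 and 284 in KO (1.59, SE 0.26, adjusted p = 0.0302). Fst, which encodes follistatin, a secreted binder of activins, was at 775 and 741 in WT and 96.8 and 107 in KO (-2.88, SE 0.29, adjusted p = 0.00617). Acvr1, a BMP type I receptor, was at 106 and 97.3 in WT and 30.4 and 28.0 in KO (-1.76, SE 0.32, adjusted p = 0.0397). Nog, the BMP antagonist noggin, was at 998 and 724 in WT and 20.5 and 22.1 in KO, with a difference of -5.26 (SE 1.53, adjusted p = 0.155) that was called with the block (adjusted p = 0.00369). With all libraries and no block, the KO effect in EBs minus that in ESCs was called for Fst (-3.82, SE 0.38, adjusted p = 0.0115) and for no other of the 57. With the block 2 were called toward higher and 9 toward lower in EBs, Nog among the latter (-7.16, adjusted p = 0.00816). Each of the calls made with all libraries and no block was lost on leaving out any 1 EB library. The highest adjusted p was 0.297 for Bambi, 0.109 for Fst (0.144 for its difference of effects) and 0.364 for Acvr1. The calls of Bambi and Acvr1 were also lost without ESC replicate A or B of either genotype, and held in 2 of 10 fits. The call of Fst held in 6 of 10. Its difference of effects held in 4 of 10, being lost also without KO ESC replicate A or B. Fst, Nog and Acvr1 thus were high in the WT EBs, where the endoderm genes listed above were high as well. The part of cell makeup in this was not tested.

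Between WT EBs and WT ESCs, 6 of the 57 rose and 0 fell, where 2.48% of all genes were called, 317 higher and 75 lower. Without replicate C 29 were called higher and 8 lower (46.1% of all genes). Besides Fst (2.70, adjusted p = 0.00443) they included Foxa2, a Nodal target and endoderm gene (7.88, adjusted p = 0.0127), Nog (7.01, adjusted p = 0.0485), Grem1, another BMP antagonist (5.83, adjusted p = 0.0156), and Smurf1, a ubiquitin ligase for SMADs (1.04, adjusted p = 0.044). Foxa2 had no read in WT ESC replicates B and C and 2.15 in A, and held 410 and 288 in WT EBs but 2.12 and 10.2 in KO EBs. Grem1 held 578 and 605 in WT EBs and 372 and 401 in KO EBs. All 6 calls were lost on leaving out WT EB replicate A or WT EB replicate B. Their highest adjusted p over the fits without 1 library ran from 0.112 for Fst to 0.421 for Nog. The calls of Nog and Smurf1 held in 2 of 10 such fits. Between KO EBs and KO ESCs, Inhba, an activin subunit, rose (3.81, 0.908 and 0 against 56.5 and 49.2, 4.68, adjusted p = 0.0424), a call lost in 8 of 10 fits without 1 library, and 0 fell. With all libraries and no block, the most abundant gene of each list (Pcsk6, which processes Nodal, Tdgf1, Tgif1, Smad7, Eomes, Bmp7, Bmpr1a, Smurf2, Tbx3, Tgfbr1 and Tcf3) was called in no contrast. With the block some were, such as Bmp7 between KO and WT ESCs (adjusted p = 0.00633). The median of the 57 was 0.34 in ESCs and -0.06 in EBs between genotypes, and 0.55 in WT and 0.11 in KO between EBs and ESCs.

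The genes most like a member in pattern were sought among 10004 genes with a mean of 100 or more, by the root mean square difference of centred log2 values over the 10 libraries. For Nodal they were Rita1 (0.17), Mettl8 (0.17) and Cask (0.18), against 0.61 for the spread of Nodal about its own mean. For Bmp4 they were Pnp2 (0.50), Myrf (0.53) and Zfp423 (0.55), against 1.89. For Id1 they were Porcn (0.81), Etv4 (0.83) and AU015836 (1.03), against 2.82. For Lefty1 they were Etv4 (1.35), Enox1 (1.35) and Porcn (1.38), against 2.99, which is a looser match. Etv4, for one, was at 47.2 and 40.5 in WT ESC replicates A and B, 1990 in C, 587 and 510 in WT EBs and 795 and 664 in KO EBs. 

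Since Mettl3 methylates adenosine mostly within a core of the form GGACT, the longest coding transcript of each member was searched for these letters on its own strand. The members held 0.779 (Id4) to 2.59 (Id1) matches per kilobase, against a median of 1.06 over 13363 tested coding genes. Of the 9, Id1, Bmp4 (2.42), Id3 (2.35), Id2 (2.03), Nodal (1.91), Lefty1 (1.23) and Lefty2 (1.21) were above that median, and Smad7 (0.935) and Id4 below it. Id1, Bmp4 and Id3 lay at or above 95.8%, 94.5% and 93.8% of these genes, and their KO differences in EBs had different signs. Methylation was not measured in these libraries, and a match is not a methylated site.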

How the data were processed

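The deposited table gives, per gene and library, a signal that the authors made by scaling the number of reads with DESeq's size factors. The submitters' processing notes list, without their roles, TopHat2 2.0.10, HTSeq 0.6.0, Bowtie, CASAVA 1.8.2 and the build mm10. The annotation and strand setting are not given in the sources used here, and per the labels the TruSeq RNA kit was used, which does not keep strand. Each value was a whole multiple of its library's smallest value (100% within 0.01), so reads were recovered. Reads in no gene, 34.0% to 38.8% of records, were left out with the other summary lines (5 in all). Symbols were matched through GENCODE for GRCm38 (37607 of 39179 identifiers).

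Groups came from the labels. The 15781 genes whose mean over all 10 libraries was at least 10 were fitted with limma 3.58.1 in R 4.3.3 on log2(value + 1), with 4 group means, an intensity trend and robust variances (6 residual degrees of freedom), two-sided, Benjamini-Hochberg adjusted within each contrast. A difference on this scale understates the change of low genes. Of 17 alternatives, 2 used count tests on the recovered reads (edgeR 4.0.16 quasi-likelihood and DESeq2 1.42.0). The others were a pseudocount of 5, no filter, TMM scaling, the replicate block, and fits without both ESC replicate C libraries or without 1 library. Same-letter ESC libraries of the 2 genotypes deviated together from their group means (r = 0.845, 0.828 and 0.858 for A, B and C over 15781 genes, which are not independent). The letters were taken as pairing them. As C stood apart from A and B in both genotypes, such r values would be high without any pairing of A with A. They therefore do not show that pairing, and calls with the block rest on it as an assumption. In EBs r was 0.369. For the KO contrasts and their difference, the block took the letters separately within ESCs and EBs. For EBs against ESCs it took a letter as shared by both cultures, which the labels do not state. That moved the values, such as Lefty1 in WT from 1.95 to 3.97. Levels per kilobase divide by the exon bases of a gene. The scripts were tested on simulated data.

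All 9 genes are named. From each pathway list the text names called genes, up to 3 per contrast and direction, and the most abundant gene, and for 4 members the 3 genes most alike in pattern. Cer1, Nog, Tdgf1 and Etv4 values beyond that rule were chosen after they were seen. The members and lists were chosen with earlier results of these data known. Promoters come from RefSeq tables (GRCm38.p6). A called gene of the lists and some sequences are not reported here.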

Additional observations from a re-analysis of the deposited data

Results flagged for a closer look

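For 4 of the 9 genes the KO effect in ESC replicate C minus that in replicates A and B was called in the limma fit with replicate C as groups of its own (4 residual degrees of freedom, chosen after seeing the data). On the log2 scale, replicate C minus A and B was 3.11 for Lefty2 (SE 0.26, adjusted p = 7.57e-05) and 1.64 for Id4 (SE 0.37, adjusted p = 0.00842). It was -2.34 for Bmp4 (SE 0.29, adjusted p = 0.000461) and -1.49 for Id1 (SE 0.28, adjusted p = 0.00392). Replicate C is 1 library per genotype at lower depth than the others, and its spread was not measured but taken from the other libraries, so these p-values do not show that the effects differ. In the same contrast 37.8% of all tested genes were called.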

How the results depend on the processing

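Counts and values are given in the order KO against WT in ESCs, KO against WT in EBs, EBs against ESCs in WT, the same in KO, and the difference of the 2 genotype effects, or as many of these as moved. Genes called numbered 376, 290, 392, 127 and 75 with all libraries. They numbered 45, 1351 and 1655 (the first 3 contrasts) with no filter, 215 and 166 (the last 2) with a pseudocount of 5, 194 (EBs against ESCs in KO) in edgeR, and 1959, 1552, 1525, 1419 and 774 in DESeq2, which called 1 member in each of the first 2. With the replicate block 4627, 3578, 4490, 4444 and 1230 genes and 3, 3, 7, 6 and 2 members were called. For EBs against ESCs that block took the letters as shared by both cultures. Without both ESC replicate C libraries the numbers were 8715, 8196, 7278, 7465 and 5703 genes and 6, 8, 8, 6 and 6 members. Leaving out 1 library at a time gave 0 to 2177, 0 to 1162, 5 to 1206, 0 to 947 and 0 to 497 genes, and 0 to 1 members in the first 2 contrasts. The highest of each came without 1 of the replicate C libraries. The cause was not tested.

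Signs turned as follows (log2). For KO against WT in ESCs, edgeR and DESeq2 gave 0.84 and 0.78 for Lefty2, -0.76 and -0.80 for Bmp4 and 0.17 and 0.11 for Id2. TMM scaling gave 0.003 for Id4, and Id1 was 0.21 without both replicate C libraries. With replicate C as its own groups, Lefty2 was 0.94, Bmp4 -0.95, Id2 0.18 and Id4 1.06 in C, and Id1 was 0.21 in A and B. For EBs against ESCs in WT, edgeR and DESeq2 gave -0.36 and -0.47 for Lefty1, -1.08 and -1.13 for Lefty2, -1.94 and -1.997 for Bmp4, -0.67 and -0.71 for Id1 and -0.42 and -0.46 for Id2. Id4 was -0.21 without both replicate C libraries. In KO they gave -0.32 and -0.36 for Bmp4 and -0.71 and -0.76 for Id1. The difference of effects without both was -0.56 for Bmp4 and 0.034 for Id4. Without 1 library, KO against WT in ESCs ran from -1.09 to 2.94 for Lefty1, -3.46 to 0.15 for Lefty2, -0.63 to 2.63 for Bmp4, -2.34 to 2.27 for Id1, -1.49 to 0.98 for Id2 and -0.65 to 0.40 for Id4. EBs against ESCs in WT ran from -0.65 to 1.32 for Lefty2, -0.58 to 2.53 for Bmp4, -0.12 to 1.65 for Id2 and -0.21 to 0.83 for Id4, and in KO from -0.34 to 0.12 for Id4. The difference of effects ran from -1.80 to 1.45 for Bmp4, -3.57 to 1.04 for Id1, -1.85 to 0.18 for Id3 and -0.95 to 0.10 for Id4. In ESC replicates A and B, 2 to 11 reads limit Lefty1 and Id1.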
